A study of Mus musculus with 6 samples.

Results

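Endothelin and renin-angiotensin transcripts were followed in primary cultured mouse RTECs (renal tubular epithelial cells) through 8 genes, Edn1, Edn2, Ednra, Ednrb, Ece1, Agt, Ace and Agtr1a. They were chosen by gene symbol, with earlier results of these data known, and all 8 were found among the 46517 genes counted in each culture. The RNA of 3 CTL cultures was sequenced beside that of 3 cultures that received TGF-β1 at 50 ng/ml over 24 h, and the question was how these genes stood with and without this profibrotic cytokine. Cells of both groups came from kidneys of wild type FvB mice, aged 4 to 6 weeks by the sample labels and slightly younger by the study's methods, which give males. All cultures were grown with serum and EGF and then held in serum-free medium for 24 h before the treatment. The labels give no agent for CTL during the treatment period. The cultures came from a whole-kidney collagenase digest passed through a mesh, with no sort for a tubule segment.

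Endothelins are small vasoconstrictor peptides cut from larger precursors, last by an endothelin converting enzyme such as ECE1. They act through 2 G protein-coupled receptors, EDNRA, which constricts vessels and drives mesangial and fibroblast growth, and EDNRB, which in the collecting duct promotes sodium loss and also clears the peptide. In the renin-angiotensin system, renin cuts angiotensinogen (Agt) to angiotensin I, ACE cuts that to angiotensin II, and the type 1 receptor (Agtr1a) carries most of its constrictor and salt-retaining effects. The kidney has its own local supply of angiotensinogen, mainly from proximal tubule cells.

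Edn1, Edn2 and Edn3 code for peptides of the same length, and the coding bases are shown to compare the hormone itself between the 3 genes. The stretch in each transcript was found by its cysteine codons at positions 1, 3, 11 and 15 and a tryptophan codon at position 21, and the capitals mark bases that differ from Edn1. Each stretch lies in exon 2 of a GENCODE M21 transcript (build GRCm38). It is at chr13:42303649-42303711 on the plus strand for Edn1, chr4:120161951-120162013 on the plus strand for Edn2 and chr2:174761749-174761811 on the plus strand for Edn3. Edn2 shares 53 of the 63 bases with Edn1, and Edn3 shares 50 of the 63.
Edn1: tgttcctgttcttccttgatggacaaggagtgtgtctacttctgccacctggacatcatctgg
Edn2: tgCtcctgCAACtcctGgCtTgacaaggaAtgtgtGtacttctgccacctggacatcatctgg
Edn3: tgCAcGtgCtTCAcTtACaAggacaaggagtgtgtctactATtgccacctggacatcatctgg

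The 10 codons for angiotensin I, found by its opening residues, lie in exon 2 of Agt at chr8:124564450-124564479 on the minus strand (GRCm38), and are shown as the part of the transcript from which the hormone is made.
Agt: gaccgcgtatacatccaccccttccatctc

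Promoters are shown for Agt, the gene of the 8 that changed, and for Edn1, the most abundant peptide precursor of the 8. RefSeq promoter windows (GRCm38.p6) were at hand for 7 of the 8 genes, each holding 250 bases before and 50 after the transcript start. They were searched on both strands for a TATA box (TATAAA), an AP-1 site (TGANTCA), a Smad element (CAGAC), a hypoxia response element (ACGTG) and a GATA site (AGATAA), all of which can be met by chance. The 100 bases before the start are printed, at chr8:124569707-124569806 on the minus strand for Agt and chr13:42301376-42301475 on the plus strand for Edn1, with matches in capitals.
Agt: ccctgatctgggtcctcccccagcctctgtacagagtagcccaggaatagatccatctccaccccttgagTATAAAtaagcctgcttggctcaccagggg
Edn1: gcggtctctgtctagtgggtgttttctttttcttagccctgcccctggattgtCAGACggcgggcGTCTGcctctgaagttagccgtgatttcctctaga

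The Agt window held TATAAA at -30, counted from the transcript start, and 13.6% of all 32851 promoter windows hold that word. The Edn1 window held CAGAC at -47 and, on the other strand, at -35, a word found in 49.6% of windows. It also held AGATAA at 9 and ACGTG at 22 after the start, both on the other strand, words found in 11.2% and 19.6% of windows. TGANTCA, found in 7.81% of windows, was in neither. Ednra held CAGAC at -172 and -167 and Ednrb at -84, all on the other strand, and Ednrb also held it at 18. Of the 2 Ace windows, 1 held TATAAA at -31 on the other strand. Of the 4 Ece1 windows, 3 held CAGAC and 1 of these held ACGTG as well, and the Edn2 window held none of the 5 words. These matches describe the letters of the windows and not binding.

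Counts on genes ranged from 28313080 to 34183497 per library, so that 3 counts, the floor used here, were worth 0.0878 to 0.106 CPM (counts scaled by the library total). The floor and all counting intervals rest on read counts alone and leave out the spread between cultures. The reads carried no molecular identifiers, so repeated copies of a molecule could not be told apart. Of 9 genes known to respond to TGF-β1, 6 were higher and 0 lower in the treated cultures (edgeR, with 0 lower also at an unadjusted p under 0.05 and in DESeq2 and limma-voom, but 7 higher and 1 lower with the replicate number as a block), among them Fn1, Pmepa1, Tgfb1, Skil and Smad7, with log2 fold changes of 1.04, 0.87, 0.80, 0.76 and 0.55. This list was chosen with earlier results of these data known, so it is no independent check of the treatment. The Pmepa1 and Smad7 calls were lost without CTL replicate 1 (adjusted p = 0.0651 and 0.075) or TGF-β1 replicate 1 (0.0576 and 0.0572), and the Tgfb1 call without CTL replicate 1, CTL replicate 2 or TGF-β1 replicate 1 (0.105, 0.059 and 0.0845). Ccn2, Itgb6 and Tgfbi did not pass the test (log2 fold changes 0.18, -1.25 and -0.18), and with the block Ccn2 passed as higher (adjusted p = 0.0438) and Itgb6 as lower (log2 fold change -1.19, adjusted p = 5.4e-05). Epithelial markers were plentiful, with the 6 markers summing to 980 to 2618 CPM in CTL and 805 to 2080 CPM with TGF-β1, whereas Slc34a1, Slc5a2 and Slc22a6, which define the proximal tubule, were near 0. Of the 6 epithelial markers, 0 were higher and 2 lower in edgeR, DESeq2 and limma-voom, as at an unadjusted p under 0.05, and 4 were lower with the block. Over all genes tested, edgeR called 5.00% higher and 6.69% lower, and with the block 15.1% and 19.1%. Replicate 2 stood apart in both groups, with the lowest sums of epithelial markers and the highest of mural and fibroblast markers. The 6 leukocyte markers summed to 2.51 to 5.06 CPM in CTL and 2.95 to 5.82 CPM with TGF-β1, with Cd3e at 0 in all libraries but CTL replicate 3, and the 5 thick ascending limb and distal tubule markers summed to 1.92 to 4.13 CPM and 2.46 to 2.76 CPM. The labels do not say whether the cultures of a group came from separate mice, so p-values measure the spread between these cultures. Because RNA was taken from whole cultures, fewer cells of a type and less RNA per cell cannot be told apart.

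Of the 8 genes, Agt fell with TGF-β1, by 10.9-fold, and 3 others with enough reads for a test (Edn1, Ednra and Ece1) did not pass it. The endothelin side was dominated by Edn1 and Ece1, both at 494 or more normalized counts per kb of exon in every culture. Edn2, Ednrb, Ace and Agtr1a had too few reads for the test and are described by their counts. In edgeR's quasi-likelihood test of 15862 genes, 0 of the 4 tested genes were higher, against 5.00% of all genes, and 1 of the 4 was lower, against 6.69% of all genes. The median log2 fold change of the 4 was -0.22, and that of all 15862 genes was -0.0028. At an unadjusted p under 0.05, and in DESeq2 and limma-voom, the counts among the 4 were likewise 0 and 1. Scaling by library size only moved the calls over all genes from 793 higher and 1061 lower to 508 and 1467, and among the 4 they stayed 0 and 1. With the replicate number as a block the counts among the 4 were the same, 0 and 1, while 15.1% of all genes were higher and 19.1% lower.

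**Figure D1:**
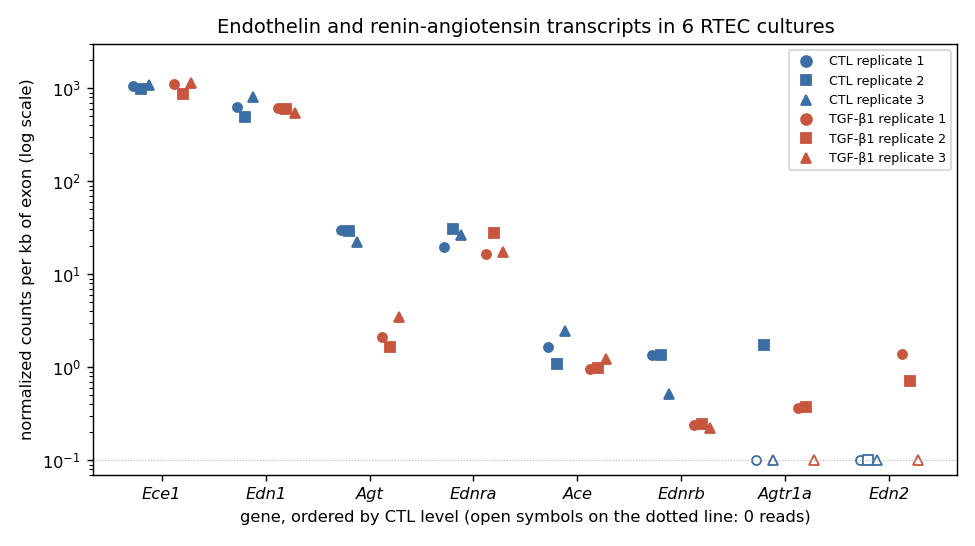
Normalized counts per kb of exon (log axis) of the 8 genes in the 3 CTL and 3 TGF-β1 cultures, each symbol being 1 culture and open symbols on the dotted line standing for 0 reads. Ece1 and Edn1 lie at the top in all cultures, from 867 to 1143 and from 494 to 801 per kb, and Agt is the gene whose treated cultures, at most 3.48 per kb, sit far below CTL, at least 22.5.

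Levels between genes were compared as normalized counts per kb of exon. In CTL the order was Ece1 (1040 ± 45.9, SD, n = 3), Edn1 (640 ± 154), Agt (27.2 ± 4.12), Ednra (25.8 ± 5.53), Ace (1.74 ± 0.697), Ednrb (1.07 ± 0.487), Agtr1a (0.575 ± 0.996) and Edn2 at 0. The CTL ranges of Agt and Ednra overlapped, as did those of Ace, Ednrb and Agtr1a with one another, and Agtr1a overlapped Edn2 at 0. With TGF-β1 the order was Ece1 (1041 ± 151, SD, n = 3), Edn1 (588 ± 35.3), Ednra (20.6 ± 6.24), Agt (2.42 ± 0.946), Ace (1.06 ± 0.158), Edn2 (0.699 ± 0.695), Agtr1a (0.245 ± 0.213) and Ednrb (0.234 ± 0.012). Agt thus stood beside Ednra in CTL cultures and near Ace in treated cultures. In the treated cultures the range of Edn2 overlapped those of Ace, Agtr1a and Ednrb, and Agtr1a overlapped Ednrb. The last 3 genes of the treated order rest on 2 or 3 reads each over the 3 libraries.

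Edn1 encodes the precursor of endothelin-1, the main renal endothelin. Edn1 (ENSMUSG00000021367.8) lies at chr13:42301476-42307990 on the plus strand of GRCm38. Its normalized counts were 1336, 1057 and 1713 in CTL replicates 1, 2 and 3, and 1326, 1271 and 1176 in TGF-β1 replicates 1, 2 and 3. All treated cultures fell inside the CTL range, and CTL was the more spread group. The log2 fold change came to -0.12 (95% interval -0.54 to 0.30, standard error 0.17), with an adjusted p of 0.697 from edgeR, and 2 of 3 same-numbered pairs were lower. Without CTL replicate 3, the highest culture, the log2 fold change was 0.07 (adjusted p = 0.753). The interval holds no rise above 1.23-fold and no fall beyond 1.46-fold. An antisense gene, Gm47118, shares 35 bp of exon with Edn1.

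Edn2 encodes endothelin-2, a close relative of endothelin-1 in sequence and receptor binding. Edn2 (ENSMUSG00000028635.7, chr4:120161206-120167360, plus strand) had 0 reads in the 3 CTL libraries and 2, 1 and 0 reads in TGF-β1 replicates 1, 2 and 3. Both groups were within the floor of 3 counts per library, and no fold is given. Per kb of exon, Edn1 was at least 250-fold above the Edn2 floor in each of the 6 libraries, with values from 250 to 357. In these cultures endothelin-2 mRNA was not detectable at this depth while Edn1 had 1099 to 1571 reads.

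Ece1, the endothelin converting enzyme that completes the active peptide, was the most abundant of the 8 genes. Ece1 (ENSMUSG00000057530.14, chr4:137862237-137965229, plus strand) had normalized counts of 5575, 5247 and 5721 in CTL and 5898, 4597 and 6059 with TGF-β1. The treated cultures lay on both sides of the CTL range, with replicate 2 lowest in each group. The log2 fold change came to 0.00 (95% interval -0.27 to 0.27, standard error 0.11), with an adjusted p of 0.997, and its sign turned under scaling by library size only (-0.07) and in several other fits. The interval leaves room for changes of up to 1.20-fold in either direction.

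Ednra encodes the endothelin A receptor, found mostly on vascular smooth muscle, mesangial and interstitial cells in kidney. Ednra (ENSMUSG00000031616.7, chr8:77663031-77724464, minus strand) had normalized counts of 109, 169 and 146 in CTL and 91.4, 152 and 94.8 with TGF-β1. The groups overlapped, although the treated culture was lower in each of the 3 same-numbered pairs and replicate 2 was the highest culture of both groups. The log2 fold change came to -0.33 (95% interval -0.96 to 0.31, standard error 0.26), with an adjusted p of 0.47. With the block the log2 fold change was -0.34 (adjusted p = 0.0937), and without replicate 2 in both groups it was -0.45 (adjusted p = 0.191). An antisense gene, 4933431K23Rik, shares 91 bp of exon with Ednra and had 0 to 3 counts per library.

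Replicate 2, the highest culture of each group for Ednra, was also the highest of both groups for 4 of the 8 mural and fibroblast markers (Pdgfrb, Cspg4, Myh11 and Dcn), 1 of the 3 podocyte markers (Wt1) and 6 of the 8 endothelial markers, but for 0 of the 6 leukocyte and 0 of the 2 renin cell markers. Replicate 2 was the lowest of both groups for 1 of the 8 mural and fibroblast markers, Pdgfra. Only 4 of the 8 endothelial markers were above the floor in every library, so their order rests partly on few reads. Pdgfrb, the PDGF receptor of mural cells, had normalized counts of 3215, 7195 and 2162 in CTL and 1619, 3636 and 1451 with TGF-β1, with CTL replicates 1 and 3 in the opposite order to Ednra. Des, the muscle filament desmin, was highest in replicate 1 of each group, with 4445, 4001 and 3306 in CTL and 1943, 1860 and 1419 with TGF-β1. Des fell (log2 fold change -1.17, adjusted p = 0.0113, and 0.0556 without CTL replicate 1), and Rgs5, a pericyte marker, had 37.6, 31.1 and 10.3 with TGF-β1, again highest in replicate 1. Wt1, the podocyte transcription factor, had 1678, 3351 and 1172 in CTL and 1151, 2487 and 1058 with TGF-β1. Synpo, the podocyte actin-binding protein, had 14552, 17137 and 11826 in CTL and 11234, 9811 and 9328 with TGF-β1, highest in replicate 2 of CTL and replicate 1 of the treated group. The keratin Krt8 was lowest in replicate 2 of each group, with 17449.6, 6280.1 and 29059 in CTL and 20332, 9604 and 25058 with TGF-β1. Its replicates 1 and 3 stood in the same order as those of Ednra in both groups. Of the 8 mural and fibroblast markers 7 were above the floor in every library, and Lum was at 0 in CTL replicates 1 and 2. Their sum was 219 to 447 CPM in CTL and 167 to 309 CPM with TGF-β1. Of the 7 tested, 0 were higher (1 at an unadjusted p under 0.05 and 1 in DESeq2) and 1, Des, was lower, beside 5.00% and 6.69% of all genes. With the block 2 were higher and 3 lower, beside 15.1% and 19.1% of all genes. Of the 3 podocyte markers, summing to 421 to 661 CPM in CTL and 324 to 382 CPM with TGF-β1, 2 were above the floor in every library and Nphs1 was at 0 in the treated libraries. Both podocyte markers tested, Wt1 and Synpo, passed as lower with the block, beside 19.1% of all genes. Neither passed in edgeR without the block (adjusted p = 0.647 and 0.0739), and 1 passed as lower in DESeq2. The part of these cells in the Ednra level was not tested.

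**Figure D2:**
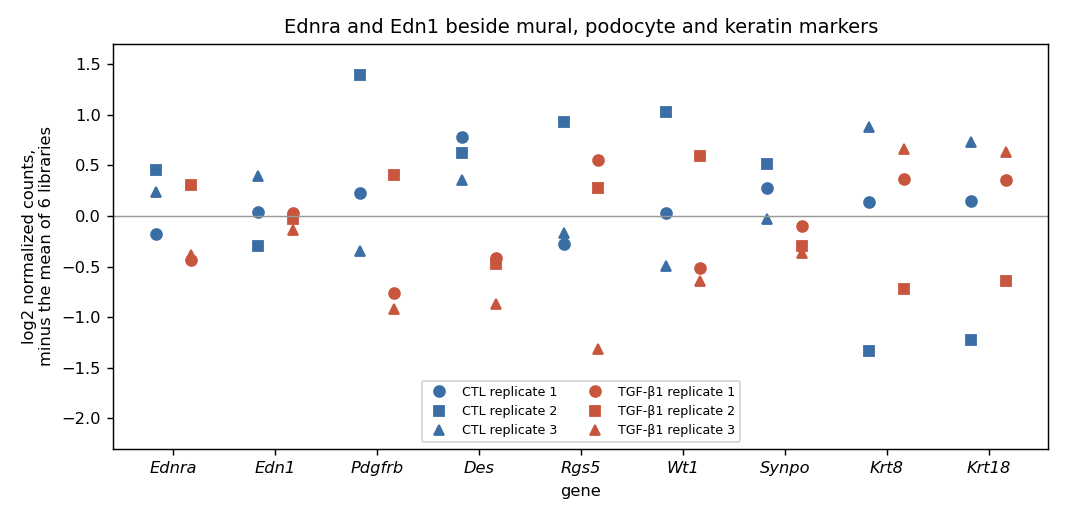
Log2 normalized counts of Ednra, Edn1, mural (Pdgfrb, Des, Rgs5), podocyte (Wt1, Synpo) and keratin (Krt8, Krt18) markers in each of the 6 cultures, minus the gene's mean over the cultures. Replicate 2 (squares) is highest in both groups for Ednra, Pdgfrb and Wt1 and lowest for Krt8 and Krt18. Des is highest in replicate 1 of both groups, and Rgs5, Synpo and Edn1 are highest in replicate 1 of the treated group.

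Ednrb, the endothelin B receptor, which is known from endothelium and collecting duct, was close to the detection floor. Ednrb (ENSMUSG00000022122.15, chr14:103814625-103844402, minus strand) had 6, 6 and 2 reads in CTL and 1, 1 and 1 reads with TGF-β1. The treated libraries were all below the CTL libraries, at counts where 1 read moves the value. The sums of 14 and 3 reads gave a CTL to TGF-β1 ratio of 4.95 (95% exact counting interval 1.38 to 26.8), which compares libraries and ignores the spread between cultures. When genes with at least 1 read were all tested, the Ednrb log2 fold change was -2.09 (adjusted p = 0.151), so it did not pass. Collecting duct markers were also sparse, with Aqp2 at 0 to 5.45 normalized counts per culture and the 7 markers summing to 0.806 to 1.66 CPM in CTL and 0.377 to 0.752 CPM with TGF-β1. The 8 endothelial markers summed to 4.66 to 9.43 CPM in CTL and 5.09 to 8.69 CPM with TGF-β1, with Cdh5 at 0 in CTL replicate 1 and Ptprb and Egfl7 the most abundant, and 0 of the 4 tested passed in edgeR, DESeq2 or limma-voom, as at an unadjusted p under 0.05. In edgeR 5.00% of all genes were higher and 6.69% lower.

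Within each library, Ednra exceeded Ednrb per kb of exon. The log2 ratio was 3.87, 4.51 and 5.71 in CTL and 6.13, 6.84 and 6.30 with TGF-β1. The groups did not overlap, and the means of 4.70 ± 0.93 and 6.42 ± 0.37 (SD, n = 3 each) differed by 1.72 (exact permutation over the cultures, two-sided, p = 0.1, and a design of 3 against 3 can give no smaller value). Each treated ratio rests on 1 Ednrb read. The receptor transcripts measured in these RTEC cultures were therefore mostly Ednra in number, in CTL as well as treated cultures.

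Agt encodes angiotensinogen, the sole precursor of the angiotensins. Agt (ENSMUSG00000031980.9, chr8:124556534-124569706, minus strand) had normalized counts of 57.0, 54.8 and 42.5 in CTL and 4.06, 3.11 and 6.57 with TGF-β1. Each treated culture lay far below each CTL culture, and the reads behind these values were 59, 57 and 39 in CTL and 4, 3 and 7 with TGF-β1. Agt fell by 3.44 on the log2 scale (95% interval -4.18 to -2.71, standard error 0.30, adjusted p = 0.00379). Its call held in 6 of 6 fits without 1 culture, at adjusted p = 0.00762 to 0.0356, and it held without replicate 2 in both groups (log2 fold change -3.19, adjusted p = 0.00632). A filter of at least 10 counts in every library removes Agt, because its treated libraries have fewer reads than that.

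Some markers of renin cells, of the proximal tubule, a known site of Agt expression, and of kidney epithelium were lower in the same cultures, and others were not. The 2 renin cell markers summed to 0.900 to 2.51 CPM in CTL and 0.0939 to 0.293 CPM with TGF-β1. Of these, Akr1b7 had normalized counts of 74.4, 26.0 and 62.2 in CTL and 1.02, 6.21 and 1.88 with TGF-β1 (log2 fold change -4.12, adjusted p = 0.0162), a call lost without CTL replicate 1, TGF-β1 replicate 1 or TGF-β1 replicate 3 (adjusted p = 0.0722, 0.0749 and 0.0608), while Ren1 had 3, 2 and 1 reads in CTL and 2, 0 and 8 with TGF-β1. The 6 proximal tubule markers summed to 69.2 to 80.9 CPM in CTL and 33.0 to 46.2 CPM with TGF-β1. Nearly all of that sum was Lrp2, the endocytic receptor megalin, which fell (log2 fold change -0.93, adjusted p = 0.0165, and 0.0824 without CTL replicate 1), and Cubn, its partner, which did not pass (0.09, adjusted p = 0.698). Of the 6 markers 2 were above the floor in every library, and Slc5a2 was at 0 in CTL replicate 1. Of the kidney epithelial markers, Cdh16, a kidney cadherin, and Pax8, a renal lineage transcription factor, fell with log2 fold changes of -1.50 and -0.77 (adjusted p = 0.00922 and 0.00436) and kept their calls in 6 of 6 fits without 1 culture, while Krt8, Krt18, Epcam and Cdh1 did not pass. The part of these markers' cells in the Agt result was not tested.

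Ace, the angiotensin converting enzyme, sits on the proximal tubule brush border and on endothelium. Ace (ENSMUSG00000020681.14, chr11:105967945-105989964, plus strand) had 9, 6 and 12 reads in CTL and 5, 5 and 7 reads with TGF-β1. The ranges overlapped in reads, and the sums of 27 and 17 reads gave a CTL to TGF-β1 ratio of 1.68 (95% exact counting interval 0.885 to 3.29). With all genes of at least 1 read tested, the Ace log2 fold change was -0.67 (adjusted p = 0.533). The antisense gene Gm11651 shares 295 bp of exon with Ace and had 0 counts.

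Agtr1a, the main angiotensin II receptor of the mouse kidney, was seen in 3 libraries. Agtr1a (ENSMUSG00000049115.15, chr13:30336441-30382867, plus strand) had 5 reads in CTL replicate 2, 1 read each in TGF-β1 replicates 1 and 2, and 0 reads in the other libraries. The ratio of the sums was 2.65 (95% exact counting interval 0.434 to 27.8), and the CTL sum came from 1 library. Reads of the other angiotensin receptors were also few, with 1 read of Agtr1b in all and 4 reads of Agtr2, all in treated libraries. Mas1 was seen in each library, with 1 to 7 reads. Renin (Ren1), the enzyme that starts the cascade, also remained at 8 reads or fewer per library. Angiotensin receptor transcripts were therefore near or below the floor in both groups.

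The rest of both pathways was described from lists of 6 other endothelin genes and 17 other renin-angiotensin genes, of which 3 and 11 had enough reads for the test. Of these 14, 1 was higher (Atp6ap2) and 1 was lower (Edn3), beside 5.00% and 6.69% of all genes. The median log2 fold change of the 14 was -0.18. With the block, 3 of the 14 were higher and 8 lower, beside the 15.1% and 19.1% of all genes.

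Edn3, which encodes endothelin-3, the endothelin that binds EDNRB more tightly than EDNRA, fell with TGF-β1. Edn3 (chr2:174760619-174784042, plus strand) had normalized counts of 35.7, 39.4 and 17.4 in CTL and 4.06, 2.07 and 3.76 with TGF-β1, with no overlap. Its log2 fold change was -3.18 ± 0.46 (standard error), with an adjusted p of 0.0122. The call was lost without CTL replicate 1 (adjusted p = 0.0621) and without TGF-β1 replicate 1 (adjusted p = 0.0586).

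Mme, neprilysin, which degrades endothelins and angiotensins on the brush border and podocytes, was abundant. Mme had normalized counts of 9110, 5333 and 9745 in CTL and 5363, 2894 and 5561 with TGF-β1. The groups overlapped through CTL replicate 2, but the treated culture was lower in each pair. The log2 fold change was -0.81 ± 0.33 (standard error), with an adjusted p of 0.17, and with the block -0.82 (adjusted p = 1.31e-05). Mme also passed in DESeq2 (adjusted p = 0.0465) and without replicate 2 in both groups (0.00186). Ece2, a second converting enzyme, had a log2 fold change of 0.27 (adjusted p = 0.11), and with the block adjusted p = 0.0277. It shares 2937 bp of exon on the same strand with Gm49333, so its count is uncertain.

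**Figure D3:**
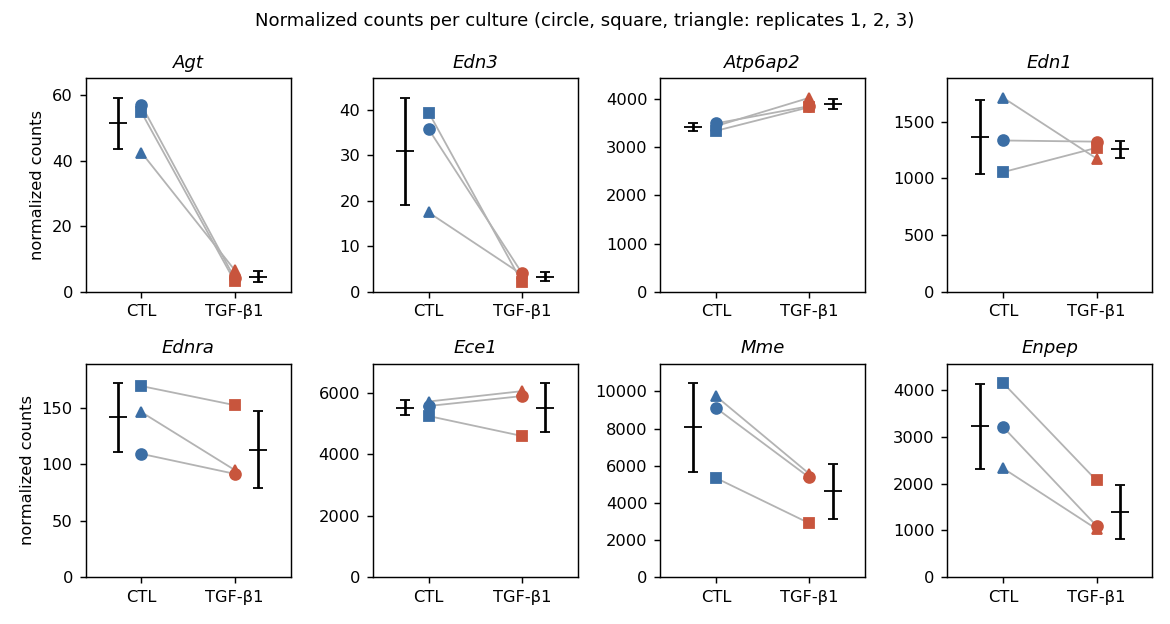
Normalized counts (linear axes from 0) of Agt, Edn3, Atp6ap2, Edn1, Ednra, Ece1, Mme and Enpep in each CTL and TGF-β1 culture. Grey lines join same-numbered cultures and black bars show the group mean ± SD (n = 3). Agt and Edn3 drop in all 3 pairs to at most 6.57 normalized counts, whereas the lines of Edn1 and Ece1 run both up and down.

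Atp6ap2, the (pro)renin receptor and a subunit of the proton pump, had normalized counts of 3501, 3346 and 3445 in CTL and 3860, 3838 and 4033 with TGF-β1. Its log2 fold change was 0.19 ± 0.04 (standard error), with an adjusted p of 0.0422, and it kept that call in 0 of 6 fits without 1 culture (adjusted p = 0.0694 to 0.149), nor under scaling by library size only (0.12, adjusted p = 0.179) or with no filter beyond 1 count (adjusted p = 0.072). Enpep, aminopeptidase A, which trims angiotensin II to angiotensin III, had 3207, 4152 and 2325 in CTL and 1095, 2067 and 1026 with TGF-β1. The groups did not overlap, and the Enpep log2 fold change was -1.21 ± 0.34 (standard error), with an adjusted p of 0.0733, and -1.24 with the block (adjusted p = 0.000299). Ctsd, the lysosomal protease cathepsin D, had a log2 fold change of -0.22 (adjusted p = 0.0941), and with the block adjusted p = 0.0201, and its count is uncertain because it shares 808 bp of exon on the same strand with Gm49369. Ctsd also passed in DESeq2 (adjusted p = 0.00354) and under scaling by library size only (0.0464). Agtrap, which encodes a protein that draws the type 1 receptor into the cell, had a log2 fold change of -0.15 (adjusted p = 0.438), and with the block adjusted p = 0.033. The block also brought Anpep, Lnpep and Prcp past the threshold as lower and Prep as higher.

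**Figure D4:**
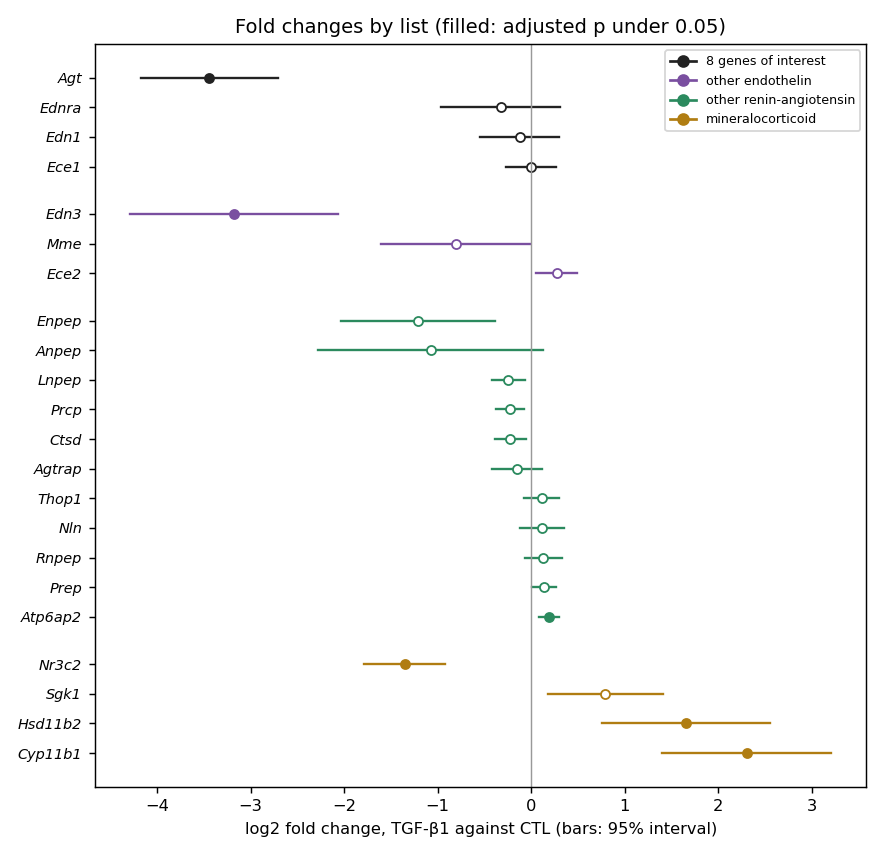
Log2 fold changes with 95% intervals (edgeR, without the block) of the 4 tested genes of the 8, the 14 other tested endothelin and renin-angiotensin genes and the 4 tested mineralocorticoid genes. Filled points passed an adjusted p of 0.05. Agt and Edn3 lie near -3.44 and -3.18.

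Angiotensin II and endothelin both bear on the mineralocorticoid step, in which aldosterone acts through the receptor Nr3c2 and HSD11B2 shields that receptor from glucocorticoids. Of 5 genes of this step, 4 were tested, 2 were higher and 1 was lower, beside 5.00% and 6.69% of all genes. Nr3c2 fell, from normalized counts of 380, 339 and 377 in CTL to 163, 106 and 161 with TGF-β1 (log2 fold change -1.35, adjusted p = 0.0102, and 0.0578 without CTL replicate 1). Hsd11b2 rose, from 461, 284 and 653 to 1654, 940 and 1800 (log2 fold change 1.65, adjusted p = 0.0415), and kept its call in 2 of 6 fits without 1 culture, those without CTL replicate 3 or TGF-β1 replicate 2 (adjusted p = 0.0703 to 0.158 in the others), and lost it with no filter beyond 1 count (adjusted p = 0.145). Cyp11b1, a corticosteroid hydroxylase, rose from 7.73, 13.5 and 12 to 46.7, 79.8 and 39.4 (log2 fold change 2.31, adjusted p = 0.0162), a call lost without CTL replicate 1 (adjusted p = 0.0821) or TGF-β1 replicate 1 (0.0586). Cyp11b1 shares 285 bp of exon with Gml2 on the opposite strand, and without strand the reads of the 2 cannot be told apart. Sgk1, a kinase induced by aldosterone, had a log2 fold change of 0.79 (adjusted p = 0.101), and with the block 0.78 (adjusted p = 3.53e-05). Sgk1 also passed in DESeq2 (adjusted p = 0.0126) and without replicate 2 in both groups (0.0053).

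Downstream of these receptors, 19 of 20 genes of Gq and G12/13 signalling were tested. Of the 19, 2 were higher and 2 lower, beside 5.00% and 6.69% of all genes. Arrb1, which encodes an arrestin that turns off G protein-coupled receptors, fell from normalized counts of 867, 855 and 747 in CTL to 363, 322 and 412 with TGF-β1 (log2 fold change -1.17, adjusted p = 0.00436). Grk5, a receptor kinase that prepares receptors for arrestin, had a log2 fold change of -0.60 (adjusted p = 0.0261) and kept its call in 1 of 6 fits without 1 culture, that without TGF-β1 replicate 3 (adjusted p = 0.0535 to 0.125 in the others). Nfatc1, a calcium-responsive transcription factor, rose (log2 fold change 0.68, adjusted p = 0.013, and 0.075 and 0.0565 without CTL or TGF-β1 replicate 1), and Plcb3, a phospholipase under Gq, had 0.32 (adjusted p = 0.0383), passing in the same 1 of those fits (adjusted p = 0.0676 to 0.157 in the others) and not under scaling by library size only (0.24, adjusted p = 0.0583). The G protein subunits Gna11 and Gna12 had log2 fold changes of -0.10 and 0.17 (adjusted p = 0.212 and 0.21). Gnaq had 0.03 (adjusted p = 0.803), which turned to -0.04 under scaling by library size only. With the block 5 genes of this list were higher and 5 lower, beside 15.1% and 19.1% of all genes. Gna12 was among the higher (adjusted p = 0.0126).

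Other vasoactive peptide and nitric oxide genes gave 3 higher and 3 lower of 17 tested among 32, beside 5.00% and 6.69% of all genes. Nos1, the neuronal nitric oxide synthase, had 1, 7 and 3 reads in CTL and 33, 27 and 34 with TGF-β1 (log2 fold change 3.04, adjusted p = 0.0136, and 0.0671 without TGF-β1 replicate 1). Nos1 shares 268 bp of exon with the antisense gene Gm26995, and without strand their reads there cannot be told apart. Nppb, the precursor of brain natriuretic peptide, had normalized counts of 57.9, 41.3 and 81.8 in CTL and 144, 131 and 116 with TGF-β1 (log2 fold change 1.11, adjusted p = 0.0425), and kept its call in 1 of 6 fits without 1 culture, that without CTL replicate 3 (adjusted p = 0.0669 to 0.165 in the others). Ramp2 and Ramp3, which adapt the adrenomedullin receptor, had log2 fold changes of -1.94 and -2.38 (adjusted p = 0.0161 and 0.0344), and Ramp3 kept its call in 1 such fit, that without TGF-β1 replicate 3 (adjusted p = 0.0556 to 0.137 in the others), while Ramp2 lost it without CTL or TGF-β1 replicate 1 (adjusted p = 0.0772 and 0.0771). Ramp2 shares 1103 bp of exon on the same strand with Vps25, so its count is uncertain. Kng2, a kininogen, had -2.95 (adjusted p = 0.0302) and kept it in 0 of them (adjusted p = 0.0551 to 0.121). The third higher gene was Furin, a protease that makes the first cut in endothelin precursors, named here after its value was seen (log2 fold change 0.53, adjusted p = 0.0131). Npr2, a natriuretic peptide receptor, and Adm, adrenomedullin, had log2 fold changes of -0.14 and -0.40 (adjusted p = 0.246 and 0.141). The clearance receptor Npr3 had -1.14 (adjusted p = 0.0659), and with the block -1.12 (adjusted p = 3.83e-05). Npr3 also passed in DESeq2 (adjusted p = 0.00124) and without replicate 2 in both groups (0.00256). With the block 4 genes of this list were higher and 8 lower, beside 15.1% and 19.1% of all genes. Adm was among the lower (adjusted p = 0.0196).

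For each tested gene of the 8, the genes of most similar pattern were found by the root mean square difference of centred log2 normalized counts over the 6 libraries, among the other tested genes with a mean of at least 5 CPM. Edn1 was nearest to Alkal1, a ligand of the ALK receptor (difference 0.0569), and Plaur, the urokinase receptor (0.0737). Ednra was nearest to Sema3a, a secreted guidance cue (0.105), and Olfm1, a secreted olfactomedin (0.138). Ece1, which hardly varied, was nearest to Vwa8 (0.0197) and Atg14 (0.0224). Agt was nearest to Nid2, a basement membrane nidogen (0.251), and Apela, a peptide ligand of the apelin receptor (0.271). Nid2 and Apela had log2 fold changes of -2.95 and -3.12. These are likenesses of pattern over 6 libraries that share the same 2 groups.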

How the data were processed

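The authors isolated poly(A) mRNA, sequenced single-end 50-bp reads, trimmed them (Trim Galore per the labels), aligned them to GRCm38 with STAR 2.4.1d and counted reads per gene with HTSeq 0.6.1. The deposited values are whole-number counts per gene and library, with no normalization. Entries for reads not assigned to a gene took 25.4 to 25.9% of the reads listed in all, and were left out. Multiple alignments, which are part of that share, took 18.7 to 19.4%. The strand setting and annotation release are not given in the sources used here. Other named genes that share exon with a gene on the opposite strand include Nr3c2 (247 bp), Ramp3 (101 bp) and Gna12 (456 bp). Of 46517 identifiers, 46005 matched GENCODE M21, which gave symbols, positions and exon lengths.

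Counts were tested in R 4.3.3 with edgeR 4.0.16 (filterByExpr, TMM, robust glmQLFit, glmQLFTest). The p-values are two-sided and were adjusted by Benjamini-Hochberg across the 15862 genes tested, with calls made under 0.05. Normalized counts are TMM-scaled to the geometric mean library size. limma 3.58.1 (voom), DESeq2 1.42.0 and matplotlib 3.10.9 were also used, and the count models were tested on simulated data. Any pair of libraries differed by a chi-square of at least 6.7 per degree of freedom. Same-numbered cultures of the labels deviated together (correlations 0.322 to 0.673, against -0.604 to 0.205 for different numbers), so the numbers were taken to pair the cultures wherever pairs or the block are given. The study describes no pairing, so the main fit has no block and its calls ignore any pairing.

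The 8 genes and all lists were chosen with earlier results of these data known. Some list genes, and a ratio that needs them, are not reported here and were left out of the lists and their counts. Named from each pathway list were up to 5 passing genes of largest change and 3 others of highest level per kb, and from each marker list up to 2 of highest CPM. Genes named outside this rule are Anpep, Lnpep, Prcp, Prep, Furin, Rgs5, Cspg4, Myh11, Dcn, Pdgfra, Cdh16, Pax8, Epcam, Cdh1, the remaining angiotensin receptors and markers at or near 0.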

Additional observations from a re-analysis of the deposited data

How the results depend on the processing

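Agt kept its direction and passed in every fit that tested it (-3.80 to -3.19 when cultures were left out), and was not tested with at least 10 counts in every library, which left 0 lower genes among the 8. Edn1, Ednra and Ece1 passed in none. Leaving out cultures gave log2 fold changes of -0.28 to 0.07 for Edn1, -0.61 to -0.18 for Ednra and -0.07 to 0.11 for Ece1. Edn1 was 0.0722 without CTL replicate 3. Ece1 was -0.0711 with library size only, -0.0033 with at least 10 counts in every library, -0.0082 with the replicate block, -0.0098 with limma-voom, -0.033 without CTL replicate 2, -0.0467 without TGF-β1 replicate 1 and -0.0719 without TGF-β1 replicate 3. Gnaq was -0.0446 with library size only and -0.0127 to 0.0724 when cultures were left out, -6.2e-05 without TGF-β1 replicate 1. Tgfbi ran from -0.35 to 0.0576, with 0.0056 without TGF-β1 replicate 3. The causes were not tested.

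Of the 14 other tested endothelin and renin-angiotensin genes, 0 were higher with library size only and with no filter beyond 1 count, and 3 with the replicate block. The number lower was 4 with DESeq2, 4 with library size only, 8 with the replicate block and 0 with at least 10 counts in every library, which removes Edn3. Leaving out 1 culture gave 0 higher and 0 to 2 lower genes, and leaving out replicate 2 in both groups gave 0 and 3. Over all genes, DESeq2 gave 1201 higher and 1521 lower, library size only 508 and 1467, and the replicate block 2388 and 3037, against 793 and 1061. Without 1 culture the numbers were 109 to 516 higher and 186 to 807 lower, and leaving out replicate 2 in both groups gave 1084 and 1290. The block changed 22 of 58 calls in the pathway lists and the 8 genes, all to passing (16 to 38), and changed no call among the 8. The Ednra to Ednrb difference ran from 1.31 to 2.23 when cultures were left out. Edn1 to Edn2 could not be computed as a ratio, since Edn2 had 0 reads in 4 libraries. Depth limits Edn2, Ednrb, Ace and Agtr1a, where 1 read is a large part of the value.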
